A study of Mus musculus with 6 samples.

Results

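The basement membrane collagen and laminin genes were followed across CUT&Tag profiles of mouse cardiac fibroblasts. They were 10 genes taken by symbol: Col4a1, Col4a2, Col4a3 and Col4a4, which encode chains of collagen IV; Lama2, Lama4, Lamb1 and Lamc1, which encode laminin chains; and Nid1 and Nid2, which encode the nidogens. A region belonged to a gene where the deposited tables gave that gene's symbol, and 233 of 370756 distinct regions did. CUT&Tag maps where a chromatin protein sits, because a transposase tethered through an antibody cuts and tags the DNA beside it.

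The cells were primary cardiac fibroblasts from mouse heart, profiled in 6 libraries that the labels divide into a T set and an S set. Each set held 1 library labelled NC, 1 labelled TGF-b and 1 treated with TGF-b and an siRNA, so every treatment had 1 library and no test of a treatment was possible. The siRNA is labelled SiTAZ among the T libraries and SiSRF among the S libraries, and the study itself describes an siRNA against Piezo2, so "siRNA" is used here without a target. The labels give no antibody. The study's methods list antibodies to TAZ and to SRF, and the letters T and S are kept as the labels give them. TGF-b is a growth factor under which fibroblasts become contractile myofibroblasts that lay down matrix; the label NC is not spelled out. The study's methods place all its mouse strains on a C57BL/6 J background; no age, animal number or pooling was given for these cells in the sources used here, and chromatin profiles give no transcript level against which an siRNA could be checked. The fibroblast marker list had regions in the first T table at 7 of its 8 genes (34 regions), the cardiomyocyte list at 5 of 5 (80 regions) and the endothelial list at 4 of 4 (26 regions), and a region near a gene is no measure of its transcript.

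The basement membrane is the thin sheet of matrix that surrounds cardiomyocytes and underlies endothelium. Laminins, heterotrimers of an alpha, a beta and a gamma chain, polymerise on the cell surface and bind integrins and dystroglycan. Collagen IV forms a second network, and nidogens link both. In the heart the laminin alpha chain encoded by Lama2 anchors cardiomyocytes, the one encoded by Lama4 lies in vessel walls, and the chains encoded by Lamb1 and Lamc1 serve both trimers. The collagen IV genes lie head to head in pairs, Col4a1 beside Col4a2 and Col4a3 beside Col4a4, and each pair is transcribed outwards from a shared promoter. TAZ, a coactivator of the Hippo pathway, reaches DNA through TEAD factors. SRF binds the CArG box.

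RefSeq promoter windows (build GRCm38.p6, 250 bases before to 50 after the start, read 5′ to 3′ on the strand of the gene) were at hand for 6 of the 10 genes: Col4a1, Col4a2, Col4a4, Lama2, Lamb1 and Nid1. The windows of Col4a1 and Col4a2 are shown because both genes share 1 promoter, so a region there cannot be given to either gene. The capitals mark the 78 bases that the windows have in common on opposite strands. The window of Lama2 is shown because a T set region lay at that start and because it was the 1 window of the 6 with a CArG box, which is in capitals. No S set region of Lama2 lay at that start, and the nearest to any listed start was 14.9 kb away.
Col4a1 (chr8:11312777-11313076, minus strand): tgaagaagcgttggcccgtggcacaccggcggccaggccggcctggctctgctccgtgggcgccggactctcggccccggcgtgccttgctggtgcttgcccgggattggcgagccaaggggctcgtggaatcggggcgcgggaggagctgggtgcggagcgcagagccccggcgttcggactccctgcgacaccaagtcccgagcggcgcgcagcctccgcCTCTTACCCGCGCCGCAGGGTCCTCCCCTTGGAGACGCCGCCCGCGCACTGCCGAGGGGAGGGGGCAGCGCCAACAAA
Col4a2 (chr8:11312555-11312854, plus strand): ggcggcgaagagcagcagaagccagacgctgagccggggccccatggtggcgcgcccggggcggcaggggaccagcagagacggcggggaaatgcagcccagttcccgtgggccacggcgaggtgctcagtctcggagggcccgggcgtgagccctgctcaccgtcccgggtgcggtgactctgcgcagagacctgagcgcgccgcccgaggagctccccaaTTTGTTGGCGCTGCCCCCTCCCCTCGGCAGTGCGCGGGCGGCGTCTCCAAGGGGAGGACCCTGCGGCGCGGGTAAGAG
Lama2 (chr10:27616893-27617192, minus strand): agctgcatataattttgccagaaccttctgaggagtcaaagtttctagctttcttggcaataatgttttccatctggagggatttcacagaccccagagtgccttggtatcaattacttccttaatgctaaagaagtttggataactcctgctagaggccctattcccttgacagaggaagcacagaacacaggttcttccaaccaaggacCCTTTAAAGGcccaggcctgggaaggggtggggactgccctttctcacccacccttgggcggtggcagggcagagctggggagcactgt

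The Lama2 CArG box, CCTTTAAAGG, lay 39 to 30 bases before the RefSeq start. It reads the same on both strands. CArG boxes were found in 1.63% of 32817 promoter windows. The TEAD motif GGAATG was found, on either strand, in 14.7% of windows and among these genes in 1, that of Nid1, from 165 to 160 bases before the start. The AP-1 motif TGANTCA (7.81% of windows) and the SMAD palindrome GTCTAGAC (0.213% of windows) had no match in the 6 windows. These are letter matches, not measured sites. The windows of Col4a1 and Col4a2 held 37 and 33 CG pairs at 74.0% and 73.7% GC, against 1 CG pair and 50.3% GC for Lama2 and a median of 52.7% GC over all windows.

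The first question was how many regions these genes had in each library. In the T set, 100 regions of the 10 genes were called as peaks in NC, 33 in TGF-b and 101 in TGF-b with siRNA. The dip in the TGF-b library was shared by the whole genome, where 127036, 53121 and 134584 regions were called. Per 10000 called regions, the genes held 7.87, 6.21 and 7.50. The S set counts were 11, 7 and 9, or 3.93, 2.70 and 3.13 per 10000 called. The collagen and laminin genes with the most T set regions were Col4a1 with 44 distinct regions and Lama2 with 42, while Nid1 had 3. Lamc1 alone had as many regions called in TGF-b as in NC, 8 in each, and it had 13 with siRNA; Lamb1 had 7, 4 and 4. S set regions of Lama4 were called in TGF-b alone (2 regions), and Nid1 had none.

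**Figure D1:**
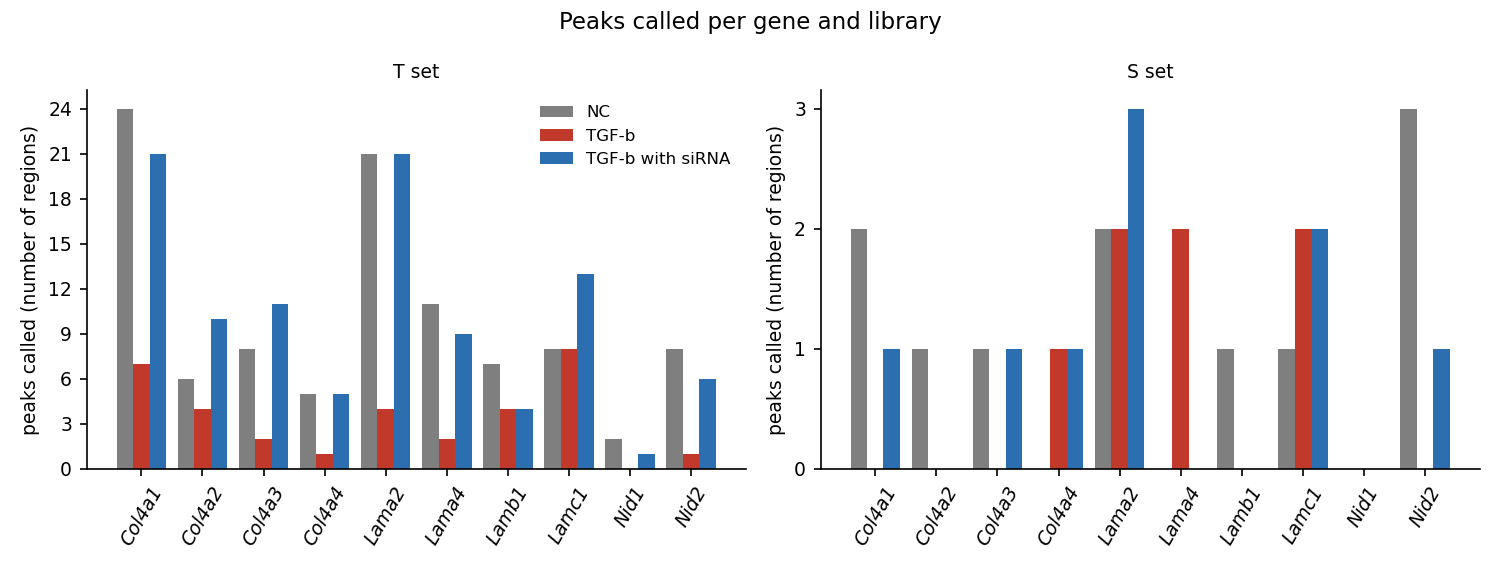
Number of regions called as peaks (vertical axis) per gene, in the T set (left) and the S set (right), for NC (grey), TGF-b (red) and TGF-b with siRNA (blue). In the T set Col4a1 had 24, 7 and 21 called regions and Lama2 had 21, 4 and 21, whereas Lamc1 had 8, 8 and 13.

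A long gene has more room for regions, so they were also counted per 100 kb of gene. Col4a1 held 38.4 T set regions per 100 kb, more than 99.6% of 4945 genes longer than 50 kb, whose median was 9.82. Lamb1 held 23.3 and Nid2 23.1, above 94.9% and 94.7% of those genes. Col4a4 held 7.94, Lama2, the longest at 636 kb, 6.60 and Nid1 4.02, all under the median. The symbol follows the nearest listed transcript start, and this raised the count for Col4a1: 12 of its 44 regions lay in introns of Col4a2 and 26 in Col4a1 itself. Counted by the gene whose intron or exon holds the region, a choice made after seeing the data, Col4a1 held 22.7 per 100 kb, more than 96.3% of the same genes, whose median was then 10.8. Col4a2 rose from 13.9 to 21.98 (above 95.6%), Lamb1 held 20.2 (above 92.7%) and Nid2 19.8 (above 91.8%). Col4a4 rose to 13.0 (above 63.4%), while Lama2 at 8.65 and Nid1 at 8.03 were still under the median. Over the 10 genes, 18 of 192 T set regions inside an annotated intron or exon lay in a gene other than the one whose symbol they carried. Of the T set regions in introns, 47 of 178 were in a first intron. The same share over all intronic regions is not given, so this count only describes these genes.

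Most regions were intronic. In the T table of TGF-b against NC, 83.2% of the 119 regions were in introns and 6.72% in promoters, against 74.6% and 12.9% of all regions with an assigned gene. In the T table of siRNA against TGF-b the shares were 86.6% and 6.30% of 127 regions, against 75.2% and 12.2%. The median distance to the nearest listed start was 14.0 kb and 14.8 kb.

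The next question was how the signal at these regions differed between libraries. The value in each table was a normalized read density, in reads per kb over a window of 2 kb at the region, and the ratios below are log2 ratios of the later library over the earlier. Whole reads could be recovered from the densities, and the intervals given with a ratio are exact 95% binomial intervals that cover counting error only. Reads without molecular identifiers are not independent molecules, and neighbouring regions closer than the window share reads. Regions were listed because they were called in at least 1 of the compared libraries, and a region called in 1 library only tended to be higher there, so each share is read against the same share of all regions.

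In the T set, TGF-b over NC, the median log2 ratio of the 119 regions was -0.80 (order-statistic interval -1.01 to -0.63), beside -0.65 over all 170890 regions. Of the 119, 13 were at least 2-fold higher (10.9%, background 17.3%) and 49 at least 2-fold lower (41.2%, background 42.1%). The counting interval lay above 0 for 8 regions (6.72%, background 12.3%) and below 0 for 34 (28.6%, background 25.5%). The share of lower regions was thus near that of the genome. Centred on the genome's median, 24 regions were at least 2-fold higher and 29 lower, so that the higher share of regions past 2-fold went from 21.0% to 45.3%. Over all regions that share went from 29.2% to 49.6% (45675 higher and 46466 lower after centring). The 14 regions called in both libraries had a median of 0.23 (all regions -0.001). The 86 called only in NC had -1.09 (all regions -1.27), and the 19 called only in TGF-b had 0.65 (all regions 1.41). Of all regions, 5.42% were called in both libraries, 68.9% only in NC and 25.7% only in TGF-b. For the genes and the genome alike, regions called in 1 library only were higher in that library by median.

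In the T set, siRNA with TGF-b over TGF-b, the median was 1.35 (0.77 to 1.75) over 127 regions, beside 0.97 over all 180118. At least 2-fold higher were 69 (54.3%, background 49.7%), and 14 were at least 2-fold lower (11%, background 16.2%). The interval lay above 0 for 46 regions (36.2%, background 29.0%) and below 0 for 8 (6.30%, background 9.34%). After centring, 42 were higher and 31 lower, and the higher share went from 83.1% to 57.5%, while that of all regions went from 75.4% to 50.3% (52601 higher and 52065 lower after centring). Depth was low: 40 of the 119 (33.6%, background 49.3%) and 62 of the 127 regions (48.8%, background 57.9%) had 3 or fewer reads in a library. This comparison shares the TGF-b library with the one above, and counting error in that library enters both with opposite sign.

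The genes had few regions in the S set. For TGF-b over NC, the median of 17 regions was -1.01 (-1.21 to 0.07), beside -0.20 over all 52723. At least 2-fold higher were 2 (11.8%, background 17.4%) and lower 9 (52.9%, background 26.7%). The interval was above 0 for 1 region (5.88%, background 8.96%) and below 0 for 2 (11.8%, background 15.4%). Centring left 2 higher and 5 lower, which took the higher share from 18.2% to 28.6%, while that of all regions went from 39.5% to 50.1% (11443 higher and 11413 lower after centring). Without the straight line that the authors fitted to scale the libraries, 4 were higher (23.5%) and 1 lower (5.88%). Of all regions, 17263 were higher (32.7%) and 8071 lower (15.3%). The balance of regions past 2-fold thus turned for the genes and for the genome alike. Without the line the median stayed negative for the genes (-0.42) and was positive for all regions (0.36). The interval of the genes' median with the line, -1.21 to 0.07, held the genome's -0.20.

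For siRNA with TGF-b over TGF-b in the S set, the median of 15 regions was 0.36 (-0.72 to 1.14), beside -0.21 over all 52579. At least 2-fold higher were 5 (33.3%, background 15.1%) and lower 2 (13.3%, background 27.8%). The interval was above 0 for 1 region (6.67%, background 7.55%) and below 0 for 1 (6.67%, background 17.2%). The median's interval held both the value 0 and the genome's median.

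**Figure D2:**
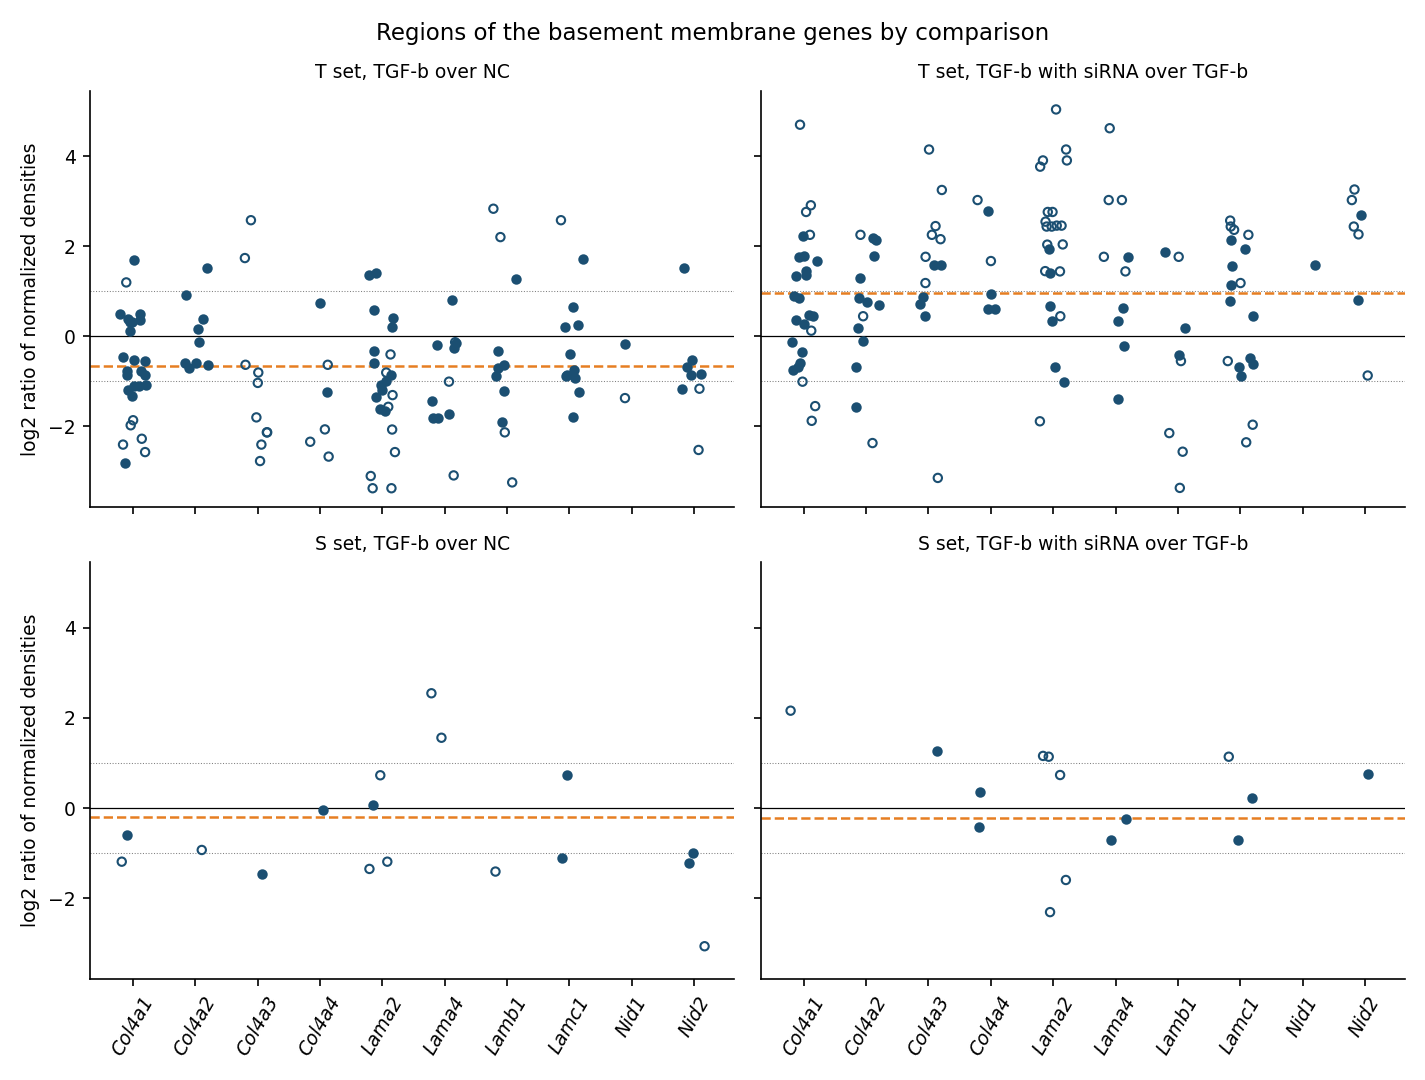
Log2 ratio of the normalized densities (vertical axis) of every region by gene, in 4 panels for the comparisons; open points have 3 or fewer reads in a library. The solid line is 0, dotted lines mark 2-fold, and the dashed line is the median of all regions (-0.65, 0.97, -0.20 and -0.21). Most extreme ratios are open points.

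Lamc1, the gamma chain shared by most laminins, had the region with the most reads of all 10 genes. It covered its promoter at chr1:153208488-153208990 (GRCm39, as all positions from the tables below), from 458 bases before to 44 after the start of its full-length transcript. In the T set it held 40 reads in NC (Poisson interval 28.6 to 54.5), 139 in TGF-b (117 to 164) and 70 with siRNA (54.6 to 88.4). The TGF-b library was the high one, and its interval overlapped neither of the others, although reads are not scaled between libraries. Only 0.0778% of all regions in that table held more reads in TGF-b, against 2.89% in NC. The normalized density of NC was 21.0 and that of TGF-b 68.4, which is 3.26-fold higher, and the log2 ratio was 1.71 (1.21 to 2.28). In the second table TGF-b stood at 59.0 and siRNA at 42.1, which is 1.40-fold lower, and the log2 ratio was -0.49 (-0.93 to -0.07). Relative to the median of all regions of each table the ratios were 2.36 and -1.46. All promoter regions had medians of -0.01 and 0.11. Centring on promoters would therefore leave the ratios of 1.71 and -0.49 little changed.

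The S set also had a region there, chr1:153208593-153208965, which lay wholly within the T set region. Its reads were 15 in NC (8.40 to 24.7), 38 in TGF-b (26.9 to 52.2) and 44 with siRNA (32.0 to 59.1). NC was the low library, and the other two overlapped. The log2 ratio was 0.74 (-0.10 to 1.77) for TGF-b over NC and 0.22 (-0.43 to 0.89) for siRNA over TGF-b, and both intervals held 0. In the S table only 1.56% of regions had more reads in TGF-b.

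**Figure D3:**
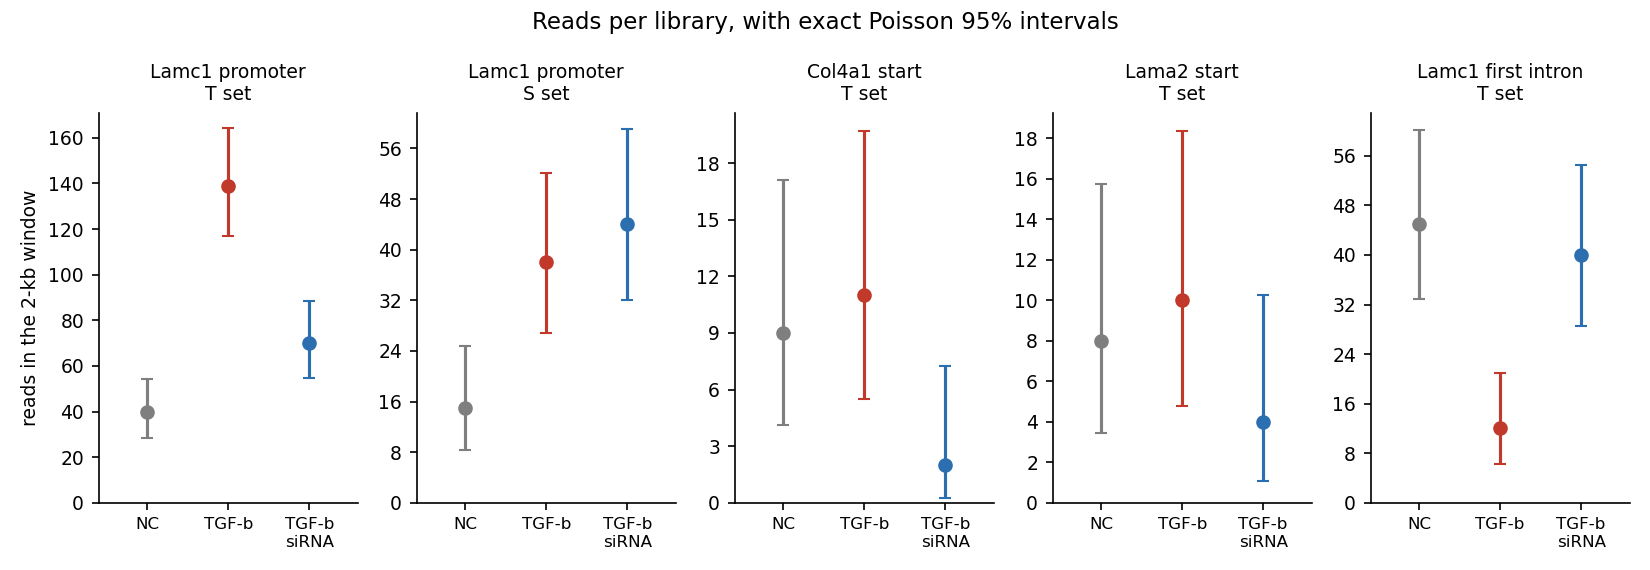
Recovered reads in the 2-kb window (vertical axis, a separate scale in each panel, each from 0) for NC, TGF-b and TGF-b with siRNA; bars are exact Poisson 95% intervals and each point is 1 library. The Lamc1 promoter in the T set stood at 40, 139 and 70 reads, while the Lamc1 first intron stood at 45, 12 and 40.

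Lamc1 introns varied among themselves. The regions chr1:153101709-153102102, with 13, 20 and 9 reads for NC, TGF-b and siRNA, and chr1:153176156-153176455, with 19, 22 and 8, had TGF-b as the high library, as the promoter had, with ratios of 0.65 (-0.39 to 1.82) and 0.25 (-0.69 to 1.23) and then -0.61 (-2.01 to 0.51) and -0.89 (-2.37 to 0.23), all of which held 0. By contrast, the region chr1:153168033-153168313, in the first intron 40.4 kb from the start, had 45 NC reads, 12 TGF-b reads and 40 siRNA reads. TGF-b was the low library there, and the log2 ratios were -1.79 (-2.92 to -0.93) and then 2.13 (1.25 to 3.27). The intronic region chr1:153142743-153142857 had 35, 20 and 2 reads, with ratios of -0.75 (-1.65 to 0.05) and -2.35 (-6.01 to -0.83), the lowest of the gene. Across all 12 and 18 regions of Lamc1 in the T tables, the medians were -0.58 and 0.95, both near the genome's.

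**Figure D4:**
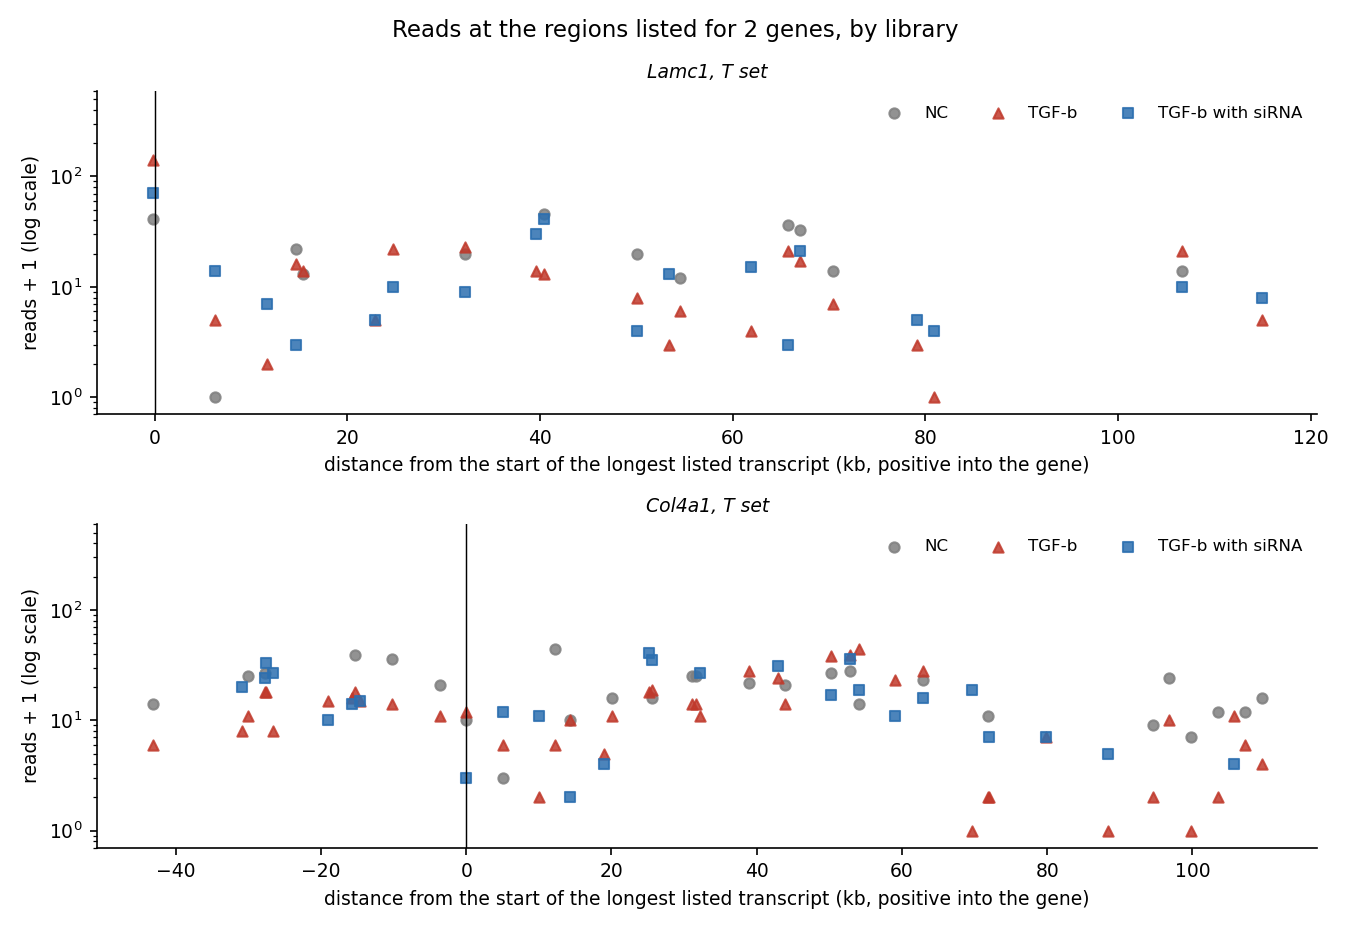
Recovered reads plus 1 on a log axis against distance in kb from the start of the longest listed transcript, positive into the gene, for Lamc1 (top) and Col4a1 (bottom) in the T set; circles are NC, triangles TGF-b and squares TGF-b with siRNA. A region listed in 1 table only lacks the library of the other. The highest point of Lamc1 is the TGF-b library at the start (139 reads), and no region of Col4a1 exceeded 43 reads.

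At Lamb1, the beta chain that pairs with the gamma chain of Lamc1, the region chr12:31316243-31316347 in intron 2, centred within 1 kb after a listed start, had 4, 10 and 5 reads for NC, TGF-b and siRNA, and its log2 ratios of 1.28 (-0.33 to 3.59) and -0.42 (-2.44 to 1.14) held 0. The region with the most reads, chr12:31321597-31321708 in intron 4, had 34 NC reads and 21 TGF-b reads (-0.65, -1.53 to 0.16). The region nearest to any listed start, chr12:31373122-31373197, was annotated as promoter of a transcript 361 bases away and had 9 and 1 reads (-2.13, -8.43 to -0.13). The exonic region chr12:31327139-31327209 had 10 reads in NC and 0 in TGF-b, at least 2.36-fold lower when the library with no read is set to a floor of 3 reads, as for all such bounds here. The bounds rest on that floor, and the counting interval can end nearer to 0; at this region it ended at a log2 ratio of -0.95. With siRNA the lowest ratio of all 10 genes was at chr12:31382358-31382465, with 26, 13 and 0 reads for NC, TGF-b and siRNA, at least 2.57-fold lower by the floor (interval up to -1.16); it carries the symbol Lamb1 but lies in an exon of Dld. Lamb1 was the 1 gene of the 10 with a median below 0 in this comparison, -0.48 over 8 regions.

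Lama2, the alpha chain of muscle laminin, had a T set region across its start, chr10:27492790-27492905, from 66 bases before to 49 after the transcript start. Reads were 8 for NC, 10 for TGF-b and 4 for siRNA, and the log2 ratios of 0.41 (-1.05 to 1.98) and -0.68 (-2.99 to 0.93) held 0, so no difference was detectable at this depth. In GRCm38 that transcript starts 99 bases after the RefSeq start, which puts the CArG box shown above 138 to 129 bases before it. The Lama2 region with the most reads, chr10:27528704-27528947, lay 33.1 kb before the nearest listed start, in an intron of Gm30165, and held 66, 21 and 41 reads in the same order. TGF-b was the low library, with ratios of -1.61 (-2.44 to -0.93) and 1.41 (0.65 to 2.27). Both of the Lama2 regions with the lowest ratios for TGF-b over NC, chr10:27019674-27019743 and chr10:27163337-27163407, had 11 reads in NC and 0 in TGF-b, at least 2.59-fold lower by the floor (interval up to -1.11). The highest ratio with siRNA over TGF-b was at chr10:27060104-27060172 in intron 28, with 0 reads in TGF-b and 23 with siRNA, at least 8.19-fold higher. Lama2 had 18 of 24 regions at least 2-fold higher with siRNA and 2 lower, with a median of 2.24, beside 49.7% higher, 16.2% lower and a median of 0.97 over all regions; 9 of the 24 had no read in TGF-b.

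Lama2 had the most S set regions of the 10 genes, 7 by symbol, all inside the gene. The region chr10:27418732-27418875 in the first intron held 6, 10 and 1 reads for NC, TGF-b and siRNA, and its ratios were 0.07 (-1.45 to 1.90) and -2.31 (-8.61 to -0.36). The region chr10:27011866-27012088 had 3, 9 and 2 reads, with ratios of 0.73 (-1.01 to 3.51) and -1.60 (-5.28 to 0.24). TGF-b was the high library in both, at counts where only the second interval of the first region excluded 0. The exonic region chr10:27073329-27073410 had 3 reads in TGF-b and 5 with siRNA (0.73, -1.48 to 3.57), and chr10:27123060-27123148 had 3 and 7 (1.14, -0.77 to 3.94).

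Lama4, the alpha chain of vascular laminin, had its region nearest to the start at chr10:38844339-38844432, 2.72 kb into the first intron, with 30 reads in NC and 10 in TGF-b. The log2 ratio was -1.43 (-2.72 to -0.45). The region with the most reads, chr10:38870645-38870966, had 25, 22 and 20 reads in NC, TGF-b and siRNA, and its ratios of -0.14 (-1.04 to 0.74) and 0.34 (-0.62 to 1.27) held 0. Another, chr10:38916156-38916327 in intron 8, had 16, 28 and 7 reads and ratios of 0.82 (-0.08 to 1.84) and -1.39 (-2.97 to -0.31). At chr10:38934997-38935077 there were 0 reads in TGF-b and 17 with siRNA, at least 6.13-fold higher. Among S set regions, chr10:38927394-38927567 had 0, 8 and 6 reads and chr10:38925550-38925734 had 1, 8 and 4, both in intron 11, with siRNA over TGF-b ratios of -0.24 (-2.10 to 1.42) and -0.72 (-3.05 to 1.03). These 2 regions were the S set regions past 2-fold in the direction of TGF-b, and neither was past it once low reads were raised to the floor of 3.

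Among the collagens, Col4a1 and Col4a2, whose chains form the common collagen IV trimer, had a T set region across their shared promoter at chr8:11362826-11362926, from 100 bases before the Col4a1 start to the start itself. Reads were 9 for NC, 11 for TGF-b and 2 for siRNA. The log2 ratios of 0.37 (-1.01 to 1.85) and -1.55 (-5.22 to 0.19) held 0. Within Col4a1, chr8:11308688-11308924 in intron 2 was the region with the most TGF-b reads, 43, against 13 in NC and 18 with siRNA. Its ratios were 1.69 (0.84 to 2.78) and -0.74 (-1.66 to 0.04), so TGF-b was the high library against NC. The region with the most reads in all libraries together, chr8:11309896-11310116 in the same intron, had 27, 38 and 35 reads and ratios of 0.49 (-0.25 to 1.27) and 0.36 (-0.35 to 1.06). The largest ratio of the gene for TGF-b over NC went the other way: chr8:11350466-11350658 in its first intron had 43 reads in NC and 5 in TGF-b (-2.80, -4.72 to -1.70).

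Of the 27 Col4a1 regions in TGF-b over NC, 2 were at least 2-fold higher and 11 lower, with a median of -0.78 (background 17.3%, 42.1% and -0.65). The 17 that lay in introns or exons of Col4a1 itself had 2 higher, 5 lower and a median of -0.45. With siRNA over TGF-b, 11 of 26 were higher and 3 lower, with a median of 0.65 (background 49.7%, 16.2% and 0.97). The highest was chr8:11293103-11293167, just inside the promoter window of a short listed transcript, with 0 reads in TGF-b and 18 with siRNA, at least 6.47-fold higher. Col4a1 had 3 S set regions, and the one with the most reads, chr8:11292653-11292733, had 6 in NC and 6 in TGF-b (-0.59, -2.49 to 1.31).

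Of the 9 regions with the symbol Col4a2 in TGF-b over NC, none was at least 2-fold lower and 1 was higher, with a median of -0.13 and a background of 42.1% lower. This follows the symbols and not the gene body: 6 further regions in Col4a2 introns carry the symbol Col4a1, and 4 of those were at least 2-fold lower, with a median of -1.09. Its region with the most reads, chr8:11443152-11443478 in intron 4, had 61, 41 and 27 reads in NC, TGF-b and siRNA, with ratios of -0.59 (-1.21 to -0.01) and -0.11 (-0.88 to 0.61). In the same intron, chr8:11432629-11432801 had 21, 40 and 9 reads, and here TGF-b was the high library: the ratios were 0.92 (0.15 to 1.78) and -1.57 (-2.91 to -0.62). The region nearest to a listed start, chr8:11454558-11454625, 317 bases before an internal transcript, had 9 reads in TGF-b and 31 with siRNA (2.15, 1.15 to 3.51). Its 1 S set region, chr8:11423126-11423201, had 4 reads in NC and 3 in TGF-b (-0.93, -3.79 to 1.54).

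Col4a3 and Col4a4, whose chains belong to the collagen IV of specialised membranes such as the kidney's, had starts 184 bases apart, and no library had a called region over them. The nearest region was chr1:82562105-82562181 in the first intron of Col4a4, 2.37 kb from its start, with 6 reads in NC and 3 in TGF-b (-0.63, -3.45 to 1.40). The Col4a3 region nearest to a start was chr1:82568318-82568425 in its first intron, 3.67 kb away, with 3, 11 and 0 reads for NC, TGF-b and siRNA. TGF-b was the high library at this Col4a3 region, with a ratio of 1.74 (0.10 to 4.51) over NC, and siRNA was at least 2.21-fold lower by the floor of 3 reads, with a counting interval that ended at a log2 ratio of -0.88. The ratio of 1.74 was the highest for TGF-b over NC among regions with at least 10 reads in both libraries together. 2 regions of Col4a3 tied for the most reads, chr1:82586462-82586535 and chr1:82607177-82607339, each with 5 in TGF-b and 12 with siRNA (1.57, 0.11 to 3.58). For Col4a4, chr1:82484057-82484224 in intron 22 had 4 in TGF-b and 24 with siRNA (2.78, 1.50 to 5.03). In TGF-b over NC, 6 of 10 Col4a3 regions and 4 of 6 Col4a4 regions were at least 2-fold lower, with medians of -1.42 and -1.65, beside 42.1% and -0.65 over all regions. As for the S set, chr1:82586017-82586091 of Col4a3 had 12 reads in NC and 6 in TGF-b (-1.47, -3.28 to -0.05), chr1:82569800-82569875 had 4 in TGF-b and 10 with siRNA (1.26, -0.35 to 3.57), and chr1:82478396-82478676 of Col4a4 had 8, 12 and 8, with ratios of -0.04 (-1.40 to 1.51) and -0.43 (-1.98 to 0.93) once the libraries were scaled.

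The nidogens link laminin to collagen IV. Nid2 had regions at its start in the T set: chr14:19801325-19801439, at the first bases of the transcript, with 38 reads in NC and 23 in TGF-b (-0.68, -1.52 to 0.08), and chr14:19800731-19800799, 534 to 602 bases before it, with 38 and 16 (-1.17, -2.16 to -0.34). NC was the high library in both, and their windows overlap, so they share reads. Relative to the median of all regions the ratios were -0.03 and -0.51, so the first stood at the level of all regions. All promoter regions had a median of -0.01, and the uncentred ratios of -0.68 and -1.17 lay below it. With siRNA, 5 of 7 Nid2 regions were at least 2-fold higher and none lower, with a median of 2.43, against the same background of 49.7% higher and a median of 0.97; with so few regions this is a description only. The S set had 3 Nid2 regions in TGF-b over NC, all at least 2-fold lower (background 26.7%): the lowest, chr14:19825723-19825797, had 10 reads in NC and 1 in TGF-b (-3.07, -9.37 to -1.12), and the deepest, chr14:19850357-19850462, had 13 and 8 (-1.21, -2.75 to 0.11). Without the authors' line their ratios were -2.46 and -0.64 and that of the other region, chr14:19807376-19807534, was -0.42 in place of -1.01, so that 1 of the 3 stayed past 2-fold. The S set region nearest to a listed start, chr14:19858649-19858737, had 6 reads in TGF-b and 10 with siRNA (0.76, -0.75 to 2.59). Nid1 had 2 regions in the first T table, chr13:13679223-13679318 in intron 15 with 10 and 8 reads (-0.17, -1.75 to 1.29) and chr13:13684755-13684831, annotated as 3' UTR, with 5 and 1 (-1.37, -7.67 to 1.05), and 1 region in the second, with 4 reads in TGF-b and 10 with siRNA (1.59, -0.02 to 3.90).

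Sites held in common by both sets were few. Of the 208 T set regions of these genes, 3 (1.44%) were overlapped by an S set region by at least 1 base, against 4.71% of all T set regions. Of the 25 S set regions, 3 (12%) were overlapped by a T set region, against 17.3% of all. They were the Lamc1 promoter, a Lamb1 region (T set chr12:31353095-31353228) and a Nid2 intron (T set chr14:19850339-19850422). The S set region of Lamb1, chr12:31353047-31353206, had 6 reads in NC and 3 in TGF-b (-1.41, -4.23 to 0.62). Each overlap covered more than 50% of both regions.

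Other basement membrane genes were taken as a list of 28: the remaining laminin and collagen IV chains, perlecan, agrin and other matrix components, assembly enzymes and receptors. In the T set, TGF-b over NC, they had 177 regions, of which 27 (15.3%) were at least 2-fold higher and 76 (42.9%) lower, with a median of -0.53. With siRNA over TGF-b, 80 of 176 (45.5%) were higher and 35 (19.9%) lower, with a median of 0.71. In the S set, 8 of 40 (20.0%) were higher and 13 (32.5%) lower with TGF-b, and 9 of 36 (25%) higher and 6 (16.7%) lower with siRNA. The backgrounds were 17.4% and 26.7% for the former and 15.1% and 27.8% for the latter, so that with siRNA the list's S set shares lay further from the genome's than its T set shares, which were within a few points of the backgrounds printed above. The list was also split by role for the T set, TGF-b over NC, where the backgrounds were 17.3% higher and 42.1% lower. The other laminin chains had 6 regions higher (10.5%) and 26 lower (45.6%) of 57. The other collagen IV chains had 4 higher (26.7%) and 6 lower (40%) of 15. The other matrix components had 6 higher (14.3%) and 18 lower (42.9%) of 42. The receptors had 8 higher (16.7%) and 19 lower (39.6%) of 48. The assembly enzymes had 3 higher (20%) and 7 lower (46.7%) of 15.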

How the data were processed

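The deposited tables, 1 for each of 4 comparisons, list regions called in either of 2 libraries, annotated to the nearest transcript start. The authors gave for each library a normalized read density (signal, in reads per kb). They also gave log2 fold changes and p-values of their own comparisons, which the deposited tables hold and which were not used. Positions follow GRCm39, the build in the study's methods; the submitters' processing notes name mm10 and BWA 0.7.12 and the methods name Bowtie2, so the aligner is not settled. The densities were (reads + 1) per kb over 2 kb, rescaled along a straight line in mean log2 density; undoing it gave whole reads (within 0.1) for 99.97% to 99.99% of regions, which was tested on simulated data. Log2 ratios were taken within a table, with exact binomial or Poisson 95% intervals that cover counting error only. Library totals were not in the tables, so the depth behind a value is its own read count. With 1 library for each treatment there are no replicates and no test; regions are given by count and median beside all regions of the table. The order-statistic interval of a median spans regions, not samples. Named regions were, for each gene and set, the one nearest to a listed start and the one with the most reads, and for each comparison the 3 highest and 3 lowest ratios with at least 10 reads in both libraries together; further regions were named after their values were seen. The members and lists were chosen with earlier results of these data known. Promoter windows came from RefSeq (GRCm38.p6) by symbol, and no sequence was read by position. Python 3.11.15, pandas 2.3.3, numpy 2.4.6 and scipy 1.17.1 were used.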

Additional observations from a re-analysis of the deposited data

Results flagged for a closer look

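The Lamc1 promoter region was the only overlapping pair of the T and S sets measured under the same contrast. For TGF-b over NC both log2 ratios were positive (1.71 and 0.74), and in the other contrast the sets had opposite signs. For TGF-b with siRNA over TGF-b, the T set log2 ratio was -0.49 and the S set log2 ratio 0.22. This difference was not tested, because each value rests on 1 library for each treatment, and the counting intervals of both values overlap.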

How the results depend on the processing

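No paired analysis was possible because each treatment had 1 library in each set. The medians of these genes kept their sign under the settings tried. Without the authors' line, S set regions past 2-fold for TGF-b over NC turned from mostly lower to mostly higher, for these genes and for all regions. The median of these genes stayed negative (-0.42), while the genome's was 0.36 in place of -0.20. The counts moved as follows; where no reason is given, the cause was not tested. With log2 ratios centred on the median of all regions, T set TGF-b over NC gave 24 higher and 29 lower regions and a median of -0.15, T set siRNA over TGF-b gave 42, 31 and 0.38, and S set TGF-b over NC gave 5 lower. Without the authors' line, T set siRNA over TGF-b gave 25 lower regions, and S set TGF-b over NC gave 4 higher and 1 lower with a median of -0.42. Regions above the median signal, which are fewer, gave 8 higher and 23 lower (T set, TGF-b over NC), 32 and 7 (T set, siRNA), 0 and 3 (S set, TGF-b) and 0 and 0 (S set, siRNA). With reads of 3 or fewer set to 3, T set siRNA over TGF-b gave 9 lower and a median of 0.77, and S set TGF-b over NC gave 0 higher. A 4-fold threshold, stricter by construction, gave 4 and 20, 42 and 6, 1 and 1, and 1 and 1 higher and lower in the same order. Without Lama2, S set siRNA over TGF-b gave 3 higher and 0 lower. Leaving out Col4a1 in the T set and asking for an overlap of 50% moved no result past its limit. Counting regions by the gene that holds them, chosen after seeing the data, moved the density per 100 kb of Col4a1, Col4a2, Col4a4 and Nid1 by over 1.5 times, and not that of the other 6 genes. In the S set with TGF-b over NC, 9 of 17 regions (52.9%, background 27.5%) had 3 or fewer reads in a library. With siRNA over TGF-b 7 of 15 did (46.7%, background 26.8%), and this limits what those counts can show.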

Other observations

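Outside the 10 genes, the list of other basement membrane genes had 21 promoter regions in the T set for TGF-b over NC, of which 6 (28.6%) were at least 2-fold higher and 2 (9.52%) lower, with a median of 0.63; over all 13098 promoter regions the shares were 20.7% and 23.9% and the median -0.01. The members differed: the promoter region with the most reads of Itga7, an integrin chain, had 34 reads in NC and 6 in TGF-b (-2.25, -3.97 to -1.16), that of Lamb2 18 and 15, and that of Lama1 11 and 12. The promoters of P4ha1 and Dag1, chosen here after their values were seen, had TGF-b as the high library, as the Lamc1 promoter had. They do not stand for the list: for siRNA over TGF-b 7 of its 23 promoter regions (30.4%) were higher and 5 (21.7%) lower, beside 28.4% and 21.0% of all 12771. Of the 8 promoter regions of the 10 genes, 1 was higher and 3 lower for TGF-b over NC, and 4 higher and 1 lower of 8 for siRNA over TGF-b. At the promoter of P4ha1, a subunit of the enzyme that hydroxylates prolines in collagen, the reads were 15 in NC, 66 in TGF-b and 14 with siRNA; the log2 ratios were 2.08 (1.32 to 3.06) for TGF-b over NC and -1.68 (-2.71 to -0.91) for siRNA over TGF-b. At the promoter of Dag1, which encodes dystroglycan, a laminin receptor, they were 30, 79 and 33, with ratios of 1.34 (0.75 to 2.03) and -0.75 (-1.41 to -0.17). In the S set the P4ha1 promoter had 6, 26 and 21 reads, with ratios of 1.38 (0.24 to 3.12) and -0.25 (-1.16 to 0.63). The S set region at the Dag1 start had 18, 13 and 22 reads, with TGF-b as the low library and ratios of -1.0 (-2.18 to 0.08) and 0.78 (-0.23 to 1.94). Both comparisons of a set share the TGF-b library, so a high count there enters each.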
